A study of Mus musculus with 6 samples.

Results

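IGHD4-1, also known as DQ52, is the D gene of the mouse heavy chain locus that lies nearest to the J genes. Its use was examined in the heavy chain clonotypes of naïve follicular (FO) B cells of 1 iB-μMT mouse and 1 B6 mouse. A clonotype is a distinct rearranged heavy chain, defined by its CDR3 bases and its V and J genes, and it was counted as an IGHD4-1 clonotype when the best-scoring D hit of the MiXCR aligner was IGHD4-1. The library of the iB-μMT mouse (iB library) held 1272 IGHD4-1 clonotypes among 7794 heavy chain clonotypes, and that of the B6 mouse (B6 library) held 581 among 6781, or 1853 of 14575 in both libraries together. No D hit was given for 12.9% and 12.3% of the clonotypes, respectively, which left 6787 and 5948 clonotypes with an assigned D gene.

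The iB-μMT mouse was a B cell-deficient μMT recipient (B6.129S2-Ighmtm1Cgn/J) of 8 to 10 weeks that was sublethally irradiated with 5 Gy and given induced hematopoietic progenitor cells. These cells were made from iR9X2-ESC, a GFP-transgenic embryonic stem cell line on the C57BL/6 background with a doxycycline-inducible cassette of Runx1, Hoxa9 and Lhx2 in the Rosa26 locus, and the recipient drank 1 mg per mL doxycycline. Its spleen was taken at week 4 after transplantation. The B6 mouse was a C57BL/6 animal whose age and treatment are not given in the sources used here. The donor cells thus came from 1 engineered cell line, carry the cassette and the GFP transgene, and were set against cells of an inbred strain. Mice of the μMT strain make no mature B cells of their own, and the listed sort used no GFP gate, so the donor origin of the cells was not checked here. Both samples were sorted by surface markers, among them IgD, IgM, CD23 and CD21, with lineage markers absent. Where the C gene of an IGHD4-1 clonotype was read, 1237 of 1238 clonotypes of the iB library and 572 of 572 of the B6 library carried IGHM, the constant region of IgM, and the remaining clonotype carried IGHG1. No other cell marker can be read from these libraries.

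There was 1 library per mouse. Each p-value comes from Fisher's exact test (two-sided) on numbers of clonotypes, adjusted by the Benjamini-Hochberg method over 15 tests between the libraries or 20 tests within them. These tests therefore compare the libraries and not the conditions, and the 95% intervals (Clopper-Pearson for shares) cover counting error only. Read numbers from PCR without molecular identifiers are not numbers of molecules, so each clonotype was counted once.

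Heavy chain genes are assembled in a fixed order, first D to J and then V to the joined D and J. The RAG recombinase cuts at the edge of each gene, nucleases trim the cut ends, and terminal deoxynucleotidyl transferase (TdT) adds bases without a template, so that the joint holds what is left of D with inserted bases on either side. DQ52 is among the shortest mouse D genes and sits apart from the other D genes, close to the J genes, and its early rearrangement in progenitors is well known. In RefSeq annotation of GRCm38.p6, the assembly that corresponds to the mm10 build named in the labels, Ighd4-1 spans chr12:113430528-113430538. The J genes lie at lower coordinates, downstream in the direction of transcription, with 694 bases between Ighd4-1 and Ighj1, 1012 to Ighj2, 1395 to Ighj3 and 1960 to Ighj4, whereas the next D gene on the other side, Ighd3-2, is 17675 bases away. These genes are coding segments that become part of the V(D)J exon. The germline bases of the genes that meet in the joint are printed here because trimming and insertions are read against them. They were taken from the unmutated alignments of the clonotypes themselves, 95 of which kept all 11 bases of IGHD4-1, and the J sequences are given from the 5′ end of the gene to the tryptophan codon that closes CDR3.
IGHD4-1: ctaactgggac
IGHJ1: ctactggtacttcgatgtctgg
IGHJ2: actactttgactactgg
IGHJ3: cctggtttgcttactgg
IGHJ4: attactatgctatggactactgg

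IGHD4-1 clonotypes held 149272 of 909806 heavy chain reads in the iB library and 117890 of 1383617 in the B6 library. The median IGHD4-1 clonotype had 99 reads in the iB library (quartiles 54 and 163, range 1 to 689) and 181 reads in the B6 library (quartiles 92 and 298, range 1 to 915). These medians lay close to those of clonotypes with other D genes, 93 and 184 reads. A read number of 1 was found for 33 IGHD4-1 clonotypes (2.59%) and 27 (4.65%), respectively. The best D score was tied with another D gene in 24 and 26 IGHD4-1 clonotypes. In 26 (2.04%) and 48 (8.26%), fewer than 5 bases matched the gene itself and the rest matched the mirrored bases that the aligner adds to each end of a D gene, leaving 1246 and 533 clonotypes for the description of the D bases. At least 8 aligned bases were present in 52.7% and 49.4% of IGHD4-1 clonotypes, compared with 77.1% and 78.2% of clonotypes with other, longer D genes, so assignments to IGHD4-1 rest on fewer bases.

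IGHD4-1 was used about 1.92 times as often in the iB library as in the B6 library. It made up 18.7% of D-assigned clonotypes (95% interval 17.8 to 19.7) in the iB library and 9.77% (9.02 to 10.6) in the B6 library, a difference of 8.97 percentage points (7.77 to 10.2, adjusted exact p = 1.67e-46). As shares of D-assigned reads, these came to 19.0% and 9.78%. IGHD4-1 was the second most used D gene in the iB library, after IGHD1-1 with 22.2%, and the fourth in the B6 library, after IGHD1-1 with 34.1%, IGHD2-4 with 14.7% and IGHD2-3 with 11.3%. Its ratio between the libraries was the highest among the 14 D genes with at least 20 clonotypes in both libraries together. Of these 14 genes, 5 (35.7%) differed at least 1.5-fold in either direction, and IGHD4-1 was 1 of 2 (14.3%) that were at least 1.5-fold higher in the iB library. The D gene with the nearest ratio was IGHD2-8, with 554 and 318 clonotypes (8.16% and 5.35%) and a ratio of 1.53. Next came IGHD2-3, with 1096 and 673 clonotypes (16.1% and 11.3%) and a ratio of 1.43. Members of the IGHD2 family are near-identical, so the split between them is uncertain. IGHD1-1 had a ratio of 0.65, and the D genes other than IGHD4-1 had a median ratio of 0.81.

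**Figure D1:**
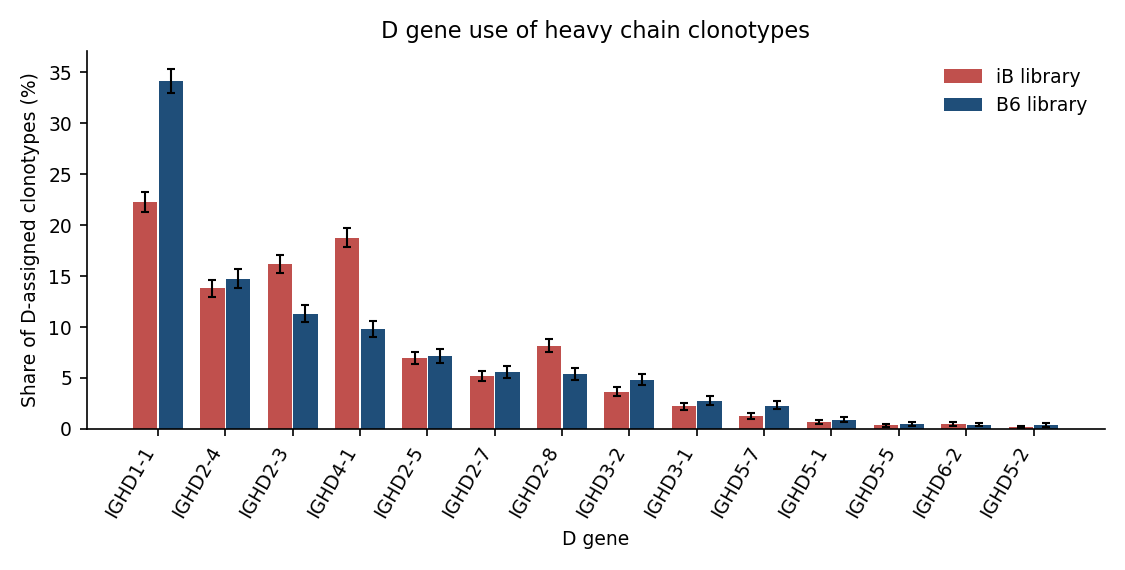
Bars give the share of D-assigned heavy chain clonotypes (%) for each D gene, in order of use in the B6 library, with 95% Clopper-Pearson intervals that cover counting error only. IGHD4-1 stood at 18.7% in the iB library and 9.77% in the B6 library, while IGHD1-1 stood at 22.2% and 34.1%.

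The higher use of IGHD4-1 was next read within groups of clonotypes that share a J gene or a V family. Among clonotypes with IGHJ1, the J gene nearest to IGHD4-1, IGHD4-1 made up 20.1% in the iB library and 7.36% in the B6 library, a ratio of 2.73. The shares were 26.4% and 13.1% with IGHJ2 (ratio 2.02) and 18.2% and 7.67% with IGHJ3 (ratio 2.37). With IGHJ4, the most distant J gene, they were 10.01% (8.73 to 11.4) and 9.22% (7.85 to 10.7), a ratio of 1.09, and these intervals overlapped. The excess was thus found with 3 of the 4 J genes beyond counting error and was not detectable with IGHJ4 at this number of clonotypes. Overlap of the intervals does not show that the shares with IGHJ4 were equal. The shares within J genes were not tested and were not recomputed with at least 8 aligned D bases.

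The excess was found in each V family group, with ratios of 1.98, 1.84 and 1.90. IGHD4-1 made up 19.6% and 9.90% of clonotypes with V genes of the IGHV2 and IGHV5 families, 17.98% and 9.80% of those of the IGHV1 family, and 18.3% and 9.62% of those of the other families. It was also present among clonotypes without inserted bases between V and D (20.7% and 10.9%) and with them (18.3% and 9.63%). Among clonotypes without inserted bases between D and J the shares were 14.2% and 8.28%, and among those with them 24.1% and 10.4%.

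**Figure D2:**
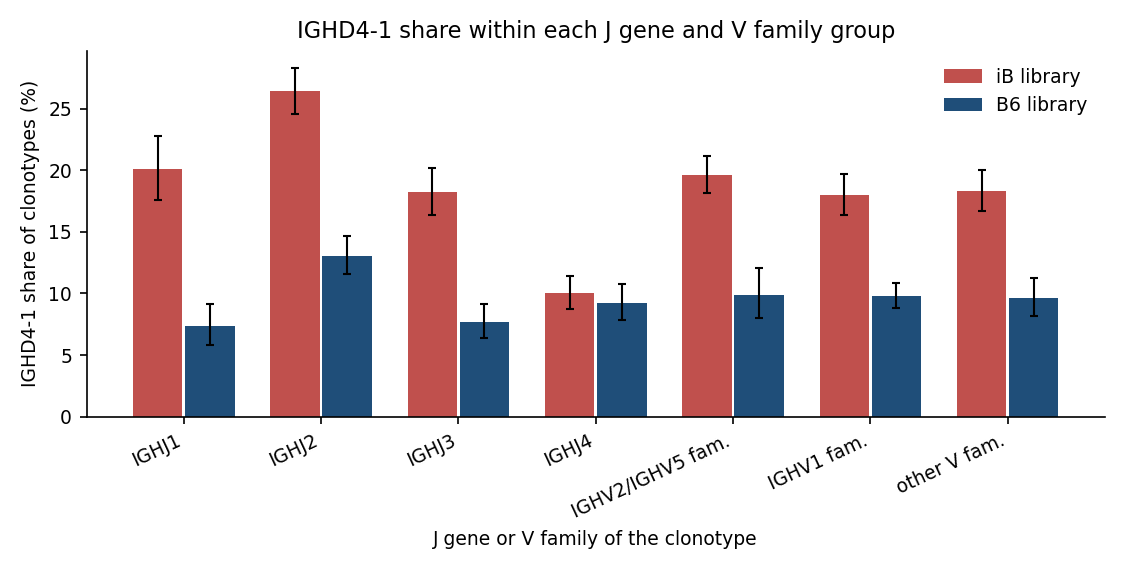
Bars give the share of D-assigned clonotypes (%) that used IGHD4-1 within each J gene and V family group, with 95% Clopper-Pearson intervals that cover counting error only. The iB bars exceeded the B6 bars with IGHJ1, IGHJ2 and IGHJ3 and in all V family groups, and the intervals overlapped with IGHJ4, at 10.01% and 9.22%.

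Joining of IGHD4-1 favored IGHJ2 in both libraries. IGHJ2 was the partner in 588 IGHD4-1 clonotypes (46.2%) of the iB library, against 29.7% of clonotypes with other D genes (adjusted exact p = 1.87e-27), and in 249 (42.9%) of the B6 library, against 30.9% (adjusted exact p = 4.90e-08). This IGHJ2 share was the highest of the 14 D genes in either library, followed by IGHD3-1 with 40.0% in the iB library and IGHD3-2 with 37.1% in the B6 library. Between the libraries, the IGHJ2 share of IGHD4-1 clonotypes did not pass the test (adjusted exact p = 0.204).

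IGHJ4 was the J partner whose share differed between the libraries by the test. It was joined to 200 IGHD4-1 clonotypes (15.7%) in the iB library and 149 (25.6%) in the B6 library, a difference of -9.92 percentage points (-14.1 to -5.94, adjusted exact p = 2.21e-06). With other D genes, the IGHJ4 share ran the other way, 32.6% in the iB library and 27.3% in the B6 library. Within the iB library, IGHD4-1 was joined to IGHJ4 less often than other D genes were (adjusted exact p = 2.35e-34), whereas within the B6 library the difference did not pass the test (adjusted exact p = 0.505). Only IGHD6-2, with 12.5%, had a lower IGHJ4 share than IGHD4-1 among the 14 D genes of the iB library, and in the B6 library IGHD4-1 ranked 8 of 14 from the highest. When only D alignments of at least 8 bases were kept, the IGHJ4 difference between the libraries was -5.88 percentage points and no longer passed the test (adjusted exact p = 0.0588).

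IGHJ1 and IGHJ3 took smaller parts. IGHJ1 was joined to 192 (15.1%) and 73 (12.6%) IGHD4-1 clonotypes (adjusted exact p = 0.177), and IGHJ3 to 292 (23.0%) and 110 (18.9%, adjusted exact p = 0.0711). Within the iB library, both shares were near those of other D genes, 13.9% for IGHJ1 (adjusted exact p = 0.439) and 23.8% for IGHJ3 (adjusted exact p = 0.593). Within the B6 library, both were lower with IGHD4-1 than with other D genes, which had 17.1% for IGHJ1 (adjusted exact p = 0.0142) and 24.7% for IGHJ3 (adjusted exact p = 0.00734). The IGHJ1 call in the B6 library was lost when clonotypes with fewer than 5 bases of the gene itself were left out (adjusted exact p = 0.0596). The IGHJ3 difference between the libraries passed the test after near-identical clonotypes were merged (5.31 percentage points, adjusted exact p = 0.0207).

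**Figure D3:**
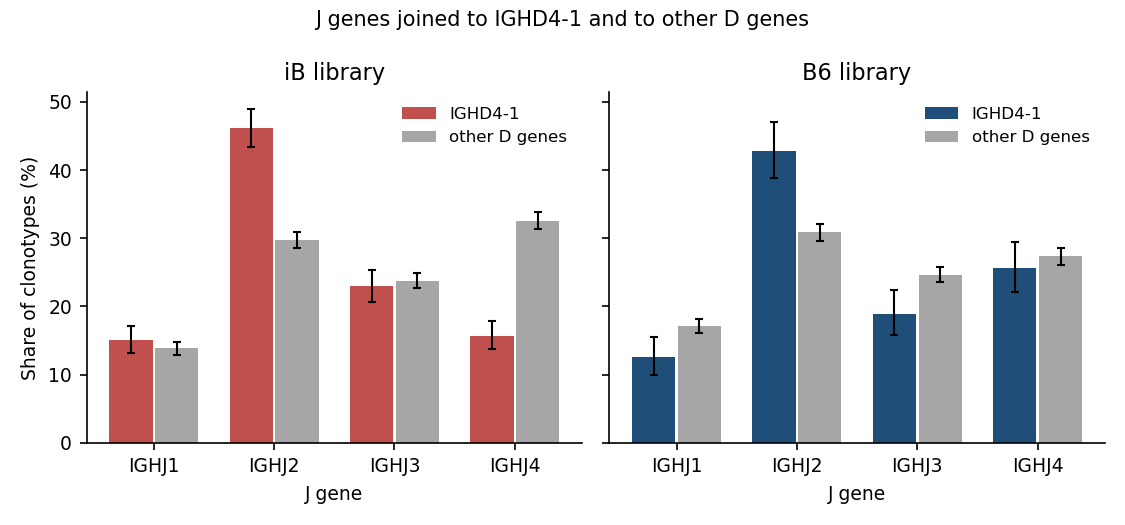
Bars give the share (%) of IGHD4-1 clonotypes and of clonotypes with other D genes joined to each J gene, in the iB library (left) and the B6 library (right), with 95% Clopper-Pearson intervals that cover counting error only. IGHJ2 was the leading partner of IGHD4-1 in both, and the IGHJ4 bar of IGHD4-1 lay at 15.7% against 32.6% for other D genes in the iB library, and at 25.6% against 27.3% in the B6 library.

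The V partners of IGHD4-1 differed between the libraries as those of other D genes did. V genes of the IGHV2 and IGHV5 families, which lie at the D-proximal side of the locus, were joined to 534 IGHD4-1 clonotypes (42.0%) in the iB library and 88 (15.1%) in the B6 library (adjusted exact p = 1.62e-31). IGHV5 accounted for 415 (32.6%) and 66 (11.4%) of them, and IGHV2 for 119 (9.36%) and 22 (3.79%). V genes of the large and mostly distal IGHV1 family were joined to 364 (28.6%) and 348 (59.9%) IGHD4-1 clonotypes (adjusted exact p = 2.71e-36). Clonotypes with other D genes had IGHV2 and IGHV5 shares of 39.6% and 14.9%, and IGHV1 shares of 30.1% and 59.7%. Within each library, the comparison of IGHD4-1 clonotypes with these did not pass the test (adjusted exact p = 0.255 and 0.440 in the iB library, 0.929 for both in the B6 library). The IGHV9 family took 104 (8.18%) and 36 (6.20%) IGHD4-1 clonotypes.

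IGHD4-1 was joined to 87 V genes in the iB library and 79 in the B6 library, 73 of them in common. The most frequent partners in the iB library were IGHV5-4 with 176 clonotypes, IGHV5-6 with 77, IGHV9-3 with 75, IGHV2-2 with 62 and IGHV3-6 with 47. In the B6 library they were IGHV1-26 with 23 clonotypes, IGHV9-3 with 22, IGHV1-55 with 21, IGHV3-6 with 18 and IGHV5-4 with 17. IGHV9-3, IGHV3-6 and IGHV5-4 were thus among the 5 leading partners in both.

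Of the 56 V genes with at least 10 IGHD4-1 clonotypes in both libraries together, 9 (16.1%) had at least a 2-fold higher share of IGHD4-1 clonotypes in the iB library and 15 (26.8%) at least a 2-fold lower share. The same V genes with other D genes gave the same numbers, 9 and 15, of which 6 and 10 were the same genes (66.7% of each list). The largest differences toward the iB library were at IGHV5-4, with 13.8% and 2.93% of IGHD4-1 clonotypes (4.73-fold, compared with 3.63-fold with other D genes), IGHV2-2 with 62 and 3 clonotypes (4.87% and 0.516%) and IGHV5-6 with 77 and 10 (6.05% and 1.72%). The largest differences toward the B6 library were at IGHV1-55, with 12 and 21 clonotypes (0.943% and 3.61%), IGHV1-26, with 17 and 23 (1.34% and 3.96%), and IGHV1-42, with 0 and 13 (2.24%). For IGHV1-42, 0 of 1272 clonotypes allows a share of up to 0.236% when 3 clonotypes are taken as the limit, or 0.290% by the Clopper-Pearson interval, and with other D genes this V gene had 18 and 52 clonotypes. These single V genes were not tested. All 12 of the IGHV2 and IGHV5 genes in this set had a higher share in the iB library, and 24 of the 28 IGHV1 genes a lower share. Read the other way, the part of each V gene's clonotypes that used IGHD4-1 was higher in the iB library for 49 of 56 V genes, with a median of 19.1% against 9.80%. The limit of 10 clonotypes favors V genes frequent in the iB library, which held more IGHD4-1 clonotypes. Below this limit, IGHV2-4 (0.157% and 0.688%) and IGHV2-6-8 (0.157% and 0.172%) had a lower share in the iB library. IGHV5-15, IGHV2-6, IGHV2-7 and IGHV2-9, also below it, had a higher one.

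The 11 bases of IGHD4-1 were trimmed mainly at the V-facing end. The mean number of bases kept was 7.48 (SD 1.72, 1246 clonotypes) for the iB library and 7.22 (SD 1.78, 533 clonotypes) for the B6 library, a difference of 0.265 bases (95% interval over clonotypes 0.0865 to 0.443). The most frequent length was 7 bases in the iB library (23.0%) and 5 bases, the shortest counted, in the B6 library (24.0%). All 11 bases were kept in 93 (7.46%) and 27 (5.07%) clonotypes (adjusted exact p = 0.0985). On average 2.59 bases (SD 1.72) and 3.01 bases (SD 1.87) were missing at the V-facing end, against 0.928 (SD 1.23) and 0.775 (SD 1.13) at the J-facing end.

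A base was counted as kept when it lay within the alignment, mismatches included, and the minimum of 5 bases of the gene favors the middle bases. Base 1, at the V-facing end, was kept in 18.1% and 12.9% of clonotypes, base 4 in 69.0% and 60.2%, and base 7 in 98.2% and 98.7%. Base 11, at the J-facing end, was kept in 56.2% and 60.2%. The iB library had the higher values over bases 1 to 6 and the B6 library over bases 7 to 11. The intervals of the libraries were apart only at bases 4, 5 and 6 (iB library higher) and at base 10 (66.4% and 73.7%). At the remaining bases they overlapped. The aligner gives a base that fits both D and J to J, which adds to the bases missing at the J-facing end. Whether this effect differed between the libraries was not tested. Mirrored bases that extend an untrimmed end, as P nucleotides do, were found at the J-facing end in 33.6% and 35.8% of clonotypes and at the V-facing end in 8.59% and 5.63%.

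**Figure D4:**
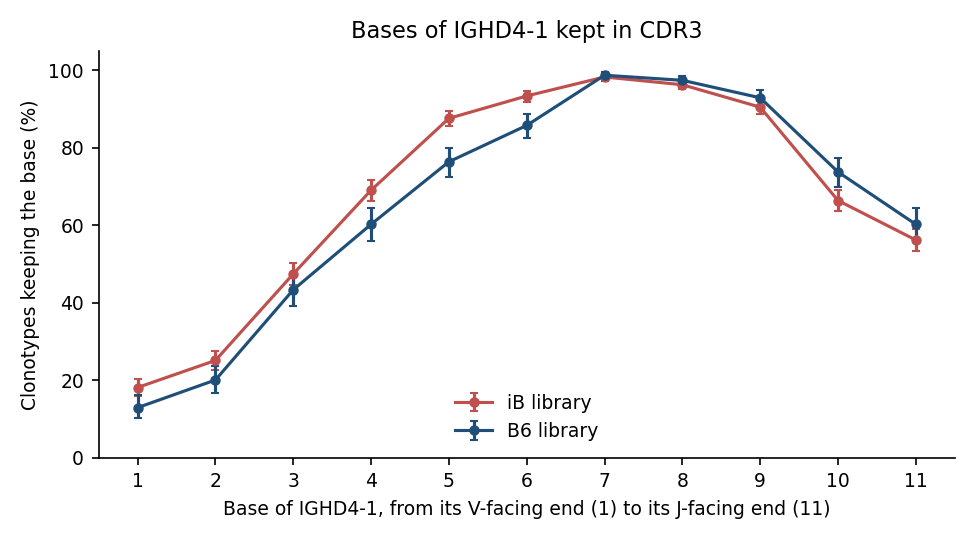
Points give the share of IGHD4-1 clonotypes (%) that kept each of the 11 bases of the gene, from its V-facing to its J-facing end, with 95% Clopper-Pearson intervals that cover counting error only. Base 7 was kept in 98.2% and 98.7% of clonotypes in the iB and B6 libraries, base 5 in 87.6% and 76.4%, and base 1 in 18.1% and 12.9%.

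Fewer bases were inserted around IGHD4-1 in the iB library, on both sides of the D gene, as was also the case around other D genes. The mean number inserted between V and D was 3.10 (SD 2.48) in the iB library and 3.79 (SD 2.94) in the B6 library, a difference of -0.690 (95% interval over clonotypes -0.965 to -0.415). Between D and J the means were 1.55 (SD 1.88) and 2.32 (SD 2.38), a difference of -0.772 (-0.992 to -0.553). Over both sides together they were 4.65 (SD 3.14) and 6.11 (SD 3.54), a difference of -1.46 (-1.80 to -1.13). Clonotypes with other D genes had means of 3.12 and 4.03 on the V side of D, 1.12 and 2.36 on its J side, and 4.24 and 6.39 in all, so the libraries also differed in this direction without IGHD4-1. These counts run between the gene ends as the aligner placed them. Mirrored bases that the aligner placed in the D alignment were therefore not counted as inserted. A joint without an inserted base can thus hold mirrored bases of D. P-like bases outside the alignments were counted as inserted.

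No base was inserted between V and D in 232 IGHD4-1 clonotypes (18.2%) of the iB library and 73 (12.6%) of the B6 library (adjusted exact p = 0.00437). Between D and J, 521 (41.0%) and 142 (24.4%) had none (adjusted exact p = 1.15e-11). Neither side held an inserted base in 86 (6.76%) and 13 (2.24%) clonotypes (adjusted exact p = 6.22e-05).

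Compared with the pooled other D genes of the same library, IGHD4-1 differed at the D to J joint. In the iB library, 41.0% of IGHD4-1 clonotypes and 57.1% of those with other D genes had no inserted base there (adjusted exact p = 2.09e-24), and the mean numbers were 1.55 and 1.12. In the B6 library the shares were 24.4% and 29.3% (adjusted exact p = 0.0348), with means of 2.32 and 2.36. The call in the B6 library was lost when clonotypes with 1 read were left out (adjusted exact p = 0.0563). By single gene, IGHD4-1 ranked 10 of 14 from the highest in this share in the iB library and 8 of 14 in the B6 library. Lower shares in the iB library were found with IGHD5-7 (31.4%), IGHD3-1 (31.3%), IGHD6-2 (18.8%) and IGHD5-2 (7.69%). A low share was thus not particular to IGHD4-1. At the V to D joint the shares without insertion were 18.2% and 16.1% in the iB library (adjusted exact p = 0.145) and 12.6% and 11.2% in the B6 library (adjusted exact p = 0.440), neither of which passed the test. Joints without any inserted base were less frequent with IGHD4-1 in the iB library, at 6.76% against 9.23% (adjusted exact p = 0.0142), and stood at 2.24% against 2.85% in the B6 library (adjusted exact p = 0.593). With each J gene taken alone, the share without D to J insertion in the iB library was lower with IGHD4-1 than with other D genes for 4 of 4 J genes, from 48.4% against 68.3% with IGHJ1 to 44.5% against 53.9% with IGHJ4. In the B6 library it was lower with IGHJ1 (26.0% against 42.3%) and IGHJ2 (20.9% against 30.9%), and 33.6% against 27.0% with IGHJ3 and 22.8% against 21.3% with IGHJ4. A short D gene leaves fewer bases by which the aligner can place its ends, and the part of this in the comparison with longer D genes was not tested.

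**Figure D5:**
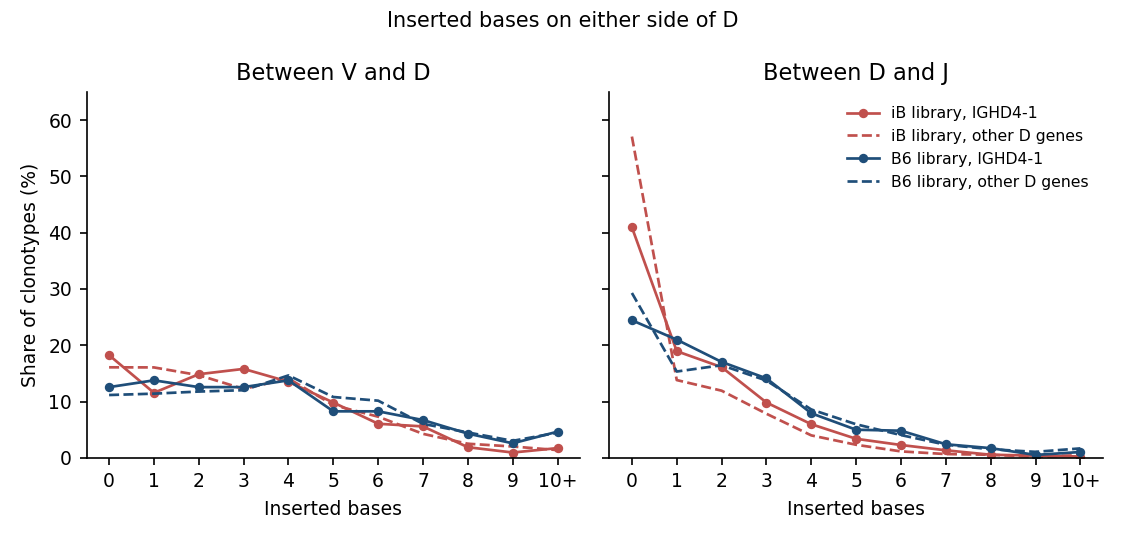
Lines give the share of clonotypes (%) by the number of inserted bases between V and D (left) and between D and J (right), for IGHD4-1 (solid) and other D genes (dashed), with 10 or more bases in the last class. At 0 inserted bases between D and J, IGHD4-1 stood at 41.0% in the iB library and 24.4% in the B6 library. The pooled other D genes of the same library stood higher, at 57.1% and 29.3%.

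The last bases of IGHD4-1, AC, also occur within each J gene, and the most frequent single joints lay at such shared bases. Of the joints without insertion that did not reach into mirrored bases, 339 in the iB library and 80 in the B6 library, 154 (45.4%, 40.0 to 50.9) and 29 (36.3%, 25.8 to 47.8) had at least 2 bases that fit both genes. No shared base was present at 160 (47.2%) and 45 (56.3%). A joint with shared bases can come from several pairs of trimmed ends that cannot be told apart, which raises its count. No expected share was computed, so a preference for shared bases was not tested. The 4 most frequent joints in the iB library are printed as germline IGHD4-1 followed by J, with the shared bases in capitals.
IGHD4-1 to IGHJ2, with most of IGHJ2 kept: ctaactgggACtactttgactac
IGHD4-1 to IGHJ1: ctaactgggACtggtacttcgat
IGHD4-1 to IGHJ4: ctaactgggACtatgctatggac
IGHD4-1 to IGHJ2, with more of IGHJ2 trimmed: ctaactgggACtttgactactgg
These joints were counted among IGHD4-1 clonotypes with at least 5 bases of the gene itself. In the iB and B6 libraries, 578 and 232 of these had IGHJ2, 191 and 71 had IGHJ1, and 195 and 131 had IGHJ4. The first IGHJ2 joint was found in 51 clonotypes (8.82% of those with IGHJ2) of the iB library, with 30 V genes. In the B6 library it was found in 7 clonotypes (3.02%), with 7 V genes. The IGHJ1 joint was found in 40 clonotypes with 23 V genes and in 8 with 6 V genes, or 20.9% and 11.3% of those with IGHJ1. The IGHJ4 joint was found in 24 (12.3%) and 8 (6.11%) clonotypes, and the second IGHJ2 joint in 21 and 1. Each of these D to J joints in the iB library was therefore linked to many V genes.

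The reading frame decides which amino acids IGHD4-1 gives to the antigen-binding loop. Read from base 1, its codons give Leu-Thr-Gly, read from base 2 they begin with the stop codon TAA and go on with Leu-Gly, and read from base 3 they give Asn-Trp-Asp. The frame from base 3 was the most used, by 589 (47.3%) IGHD4-1 clonotypes of the iB library and 218 (40.9%) of the B6 library (adjusted exact p = 0.0218). The frame from base 1 was used by 398 (31.9%) and 175 (32.8%, adjusted exact p = 0.740). The frame from base 2 was used by 259 (20.8%) and 140 (26.3%, adjusted exact p = 0.0217). The frame differences lost their calls when only D alignments of at least 8 bases were kept, at 6.12 percentage points for the frame from base 3 (adjusted exact p = 0.119) and -1.19 for the frame from base 2 (adjusted exact p = 0.816).

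In the frame from base 2, the alignment covered bases 2 to 4, the place of the stop codon, in 6 of 259 clonotypes (2.32%, 0.855 to 4.97) of the iB library and 5 of 140 (3.57%, 1.17 to 8.14) of the B6 library. Most of these held a mismatch, since TAA itself was present there in 0 and 1 of them. In the frame from base 1 the alignment covered the same bases in 28.1% and 24.0%, with TAA in 106 of 112 and 41 of 42 clonotypes, and in the frame from base 3 in 33.1% and 27.5%, with TAA in 177 of 195 and 53 of 60. Trimming at the V-facing end was deepest in the frame from base 2, with means of 3.34 and 3.47 bases, against 2.59 and 2.88 in the frame from base 1 and 2.26 and 2.82 in the frame from base 3. Every CDR3 was in frame, so clonotypes with a shifted frame cannot be compared here. A stop codon anywhere in CDR3 was present in 6 (0.472%) and 18 (3.10%) IGHD4-1 clonotypes (adjusted exact p = 3.07e-05), compared with 0.762% and 2.18% with other D genes. After near-identical clonotypes were merged, the shares with IGHD4-1 were 0.239% and 1.28% (adjusted exact p = 0.0206), and with at least 8 aligned D bases 0.149% and 4.18% (adjusted exact p = 1.60e-05). As shares of reads they were 0.0596% and 0.567%. Within each library, the stop codon share with IGHD4-1 against other D genes did not pass the test (adjusted exact p = 0.471 and 0.335).

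The Asn-Trp-Asp motif was found in CDR3 of 226 IGHD4-1 clonotypes (17.8%, 15.7 to 19.98) of the iB library and 58 (9.98%, 7.67 to 12.7) of the B6 library. With other D genes it was found in 6 (0.109%) and 3 (0.0559%). CDR3 with IGHD4-1 was 12.5 amino acids long on average (SD 1.87) in the iB library and 12.8 (SD 1.96) in the B6 library, a difference of -0.270 (95% interval over clonotypes -0.459 to -0.0807). Clonotypes with other D genes had 14.3 and 14.6 amino acids.

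The most abundant IGHD4-1 clonotypes show these features in single sequences. The 5 with the most reads in each library are printed from the first codon of CDR3, which encodes cysteine, to the tryptophan codon, with the bases aligned to the D gene in capitals.
iB library, IGHV3-6 to IGHJ2, 689 reads: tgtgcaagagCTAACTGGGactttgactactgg
iB library, IGHV1-62-3 to IGHJ1, 678 reads: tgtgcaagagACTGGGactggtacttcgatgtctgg
iB library, IGHV9-1 to IGHJ2, 561 reads: tgtgtTAACTGGGactactttgactactgg
iB library, IGHV3-6 to IGHJ1, 529 reads: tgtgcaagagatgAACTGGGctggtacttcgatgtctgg
iB library, IGHV2-2 to IGHJ4, 519 reads: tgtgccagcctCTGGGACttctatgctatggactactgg
B6 library, IGHV1-69 to IGHJ4, 915 reads: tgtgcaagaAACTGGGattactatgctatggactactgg
B6 library, IGHV1-80 to IGHJ4, 865 reads: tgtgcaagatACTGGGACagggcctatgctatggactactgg
B6 library, IGHV1-54 to IGHJ3, 775 reads: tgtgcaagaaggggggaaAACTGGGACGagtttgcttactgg
B6 library, IGHV2-5 to IGHJ3, 671 reads: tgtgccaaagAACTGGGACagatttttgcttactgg
B6 library, IGHV1-26 to IGHJ2, 642 reads: tgtgcaagagACTGGGACGTggactactgg
No base was inserted between D and J in 4 of these 5 clonotypes of the iB library and in 1 of 5 of the B6 library. Over all IGHD4-1 clonotypes the shares were 41.0% and 24.4%, and 5 clonotypes chosen by reads are too few to compare the libraries. The top clonotype of each library had no inserted base on either side, as had 6.76% and 2.24% of all IGHD4-1 clonotypes. No clonotype dominated, since the 5 together held 1.99% of IGHD4-1 reads in the iB library and 3.28% in the B6 library.

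Identical IGHD4-1 clonotypes were rare between the libraries. Of the 34 heavy chain clonotypes present in both, 3 used IGHD4-1, and each of these had 1 read in the B6 library. They are printed in the same way, with mirrored bases and 1 mismatch to the gene included in the capitals where the aligner placed them.
IGHV4-1 to IGHJ4, 102 reads and 1 read: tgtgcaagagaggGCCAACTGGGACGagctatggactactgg
IGHV3-6 to IGHJ3, 1 read in each: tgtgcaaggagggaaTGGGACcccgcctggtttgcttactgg
IGHV8-12 to IGHJ3, 278 reads and 1 read: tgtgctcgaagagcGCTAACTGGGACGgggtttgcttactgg
Whether reads were carried over between the libraries was not tested. At the level of the protein, 9 CDR3 sequences of IGHD4-1 clonotypes were found in both libraries. Within the iB library, 34 of 1235 distinct CDR3 proteins were encoded by more than 1 base sequence, and within the B6 library 1 of 580 was. Such repeats become more frequent in a larger set, and this contrast was not tested.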

How the data were processed

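The authors amplified heavy and light chain cDNA by 5′ RACE from RNA of equal numbers of sorted cells, sequenced it on a MiSeq and assembled clonotypes with MiXCR. The deposited heavy chain tables give a count of reads per clonotype, gene hits, alignments and CDR3 reference points, and these counts were used without normalization. Light chain tables, which hold no D gene, were not used. The labels name the mm10 build. Depth was 909806 and 1383617 heavy chain reads, and 3 reads, not used as a filter, were 0.00033% and 0.000217% of them.

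The best D hit, without its allele, assigned each clonotype. Inserted bases were counted between the aligned V, D and J ends, with mirrored bases in the D alignment left out. Bases kept were counted within the gene, over clonotypes with at least 5 of them, without the mirrored flanks. Shares were compared by Fisher's exact test, with Newcombe intervals for their differences, and means by a large-sample interval without a test. The counting steps were tested on simulated data. Named were all J genes, the 5 leading V partners per library, the 3 largest differences of V share each way, the 2 D genes with the nearest ratio, the 5 clonotypes with the most reads per library and those in both. IGHD4-1, the lists and the tests were chosen with earlier results of these data known. Python 3.11.15, pandas 2.3.3, SciPy 1.17.1 and statsmodels 0.14.6 were used.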

Additional observations from a re-analysis of the deposited data

Results flagged for a closer look

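The difference between IGHD4-1 and the other D genes was itself compared between the libraries with the Breslow-Day test of equal odds ratios, over 10 features with Benjamini-Hochberg adjustment. This test was chosen after the values had been seen, and it compares 1 library with 1 library. For 3 features the odds ratios differed. The odds ratios of IGHJ4 with IGHD4-1 against other D genes were 0.386 in the iB library and 0.917 in the B6 library (differences of -16.9 and -1.69 percentage points, Breslow-Day chi-square test, adjusted p = 1.31e-10). The odds ratios of IGHJ1 were 1.11 and 0.696 (1.24 and -4.56 percentage points, Breslow-Day chi-square test, adjusted p = 0.0101). The odds ratios of a D to J joint without inserted bases were 0.522 and 0.781 (-16.1 and -4.85 percentage points, Breslow-Day chi-square test, adjusted p = 0.00352). The other 7 features did not pass the threshold, IGHJ2 with an adjusted p of 0.15 and IGHJ3 with 0.0714 among them.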

How the results depend on the processing

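For 49 results under 10 alternatives, 409 of 439 values kept their direction and either their side of the threshold or a place within their error. In 14 the sign turned, and none of these differences passed a test before or after. The IGHD4-1 share difference stayed between 7.20 and 9.57 percentage points. With at least 8 aligned D bases, the IGHJ3 difference between the libraries was 7.45 and passed the test, those of IGHJ4 (-5.88), the frame from base 2 (-1.19), the frame from base 3 (6.12) and IGHJ1 against other D genes in the B6 library (-2.41) no longer passed, the difference in the share of reads moved to 7.63, and the excess of D to J bases over other D genes in the iB library to 0.613 bases. The IGHJ3 difference also passed with near-identical clonotypes merged (5.31, with 89 and 384 clonotypes merged away) and without stop codons (5.30). Weighted by reads, the stop codon difference was -0.507, that of joints without any insertion against other D genes in the iB library -4.69, and that of CDR3 length -1.64 amino acids. Of the alternatives chosen after seeing the data, at least 5 bases of the gene itself gave -3.86 for IGHJ1 in the B6 library, no longer passing, and all heavy chain clonotypes as the denominator gave 7.89 for the share of reads. D to J joints without insertion, against other D genes in the B6 library, no longer passed with at least 2 reads (-4.58) or without clonotypes of both libraries (-4.61). Between the libraries, the sign turned for IGHJ1 (-0.754) and IGHJ2 (-0.819) with at least 8 aligned D bases, and for the frame from base 1 weighted by reads (1.503). Against other D genes in the iB library, it turned for bases inserted between V and D with at least 5 reads (0.0141) and weighted by reads (0.0905). Against other D genes in the B6 library, it turned for the IGHV2 and IGHV5 families with at least 8 aligned D bases (-0.514), for the IGHV1 family with at least 8 aligned D bases (-0.175), merged (-0.117), without stop codons (-0.224), with at least 5 bases of the gene itself (-0.123) and weighted by reads (-0.725), for joints without any insertion weighted by reads (0.29), for stop codons merged (-0.0999), and for bases inserted between D and J with at least 5 bases of the gene itself (0.0202). No paired analysis was possible because there was 1 library per group, which also left no replicate to omit. The causes of these changes were not tested. The number of clonotypes, 581 in the B6 library, limits the precision.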
